A study of Mus musculus with 12 samples.

Results

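The comparison set the 3 arrays labelled Rb KO against the 3 labelled WT, which are 6 of the 12 arrays of the series, and covered all 12980 genes tested. Arrays were chosen by their titles alone. RNA came from spleen cells of 3-month-old mice sorted as Ter119-positive with high CD71, and each label is given as a set of biological replicates. The WT group carried neither knockout, the Rb KO group was knocked out for the retinoblastoma gene, and all 6 arrays came from cells with E2f8 left intact according to their labels. The other 6 arrays, labelled E2f8 KO and DKO (E2f8 and Rb together), were in the fit for its estimate of the spread and gave a second contrast of the Rb label. The labels name no strain, sex, promoter or Cre line behind the deletions, no deleted exons, no pooling of animals and no scan date or other batch.

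The retinoblastoma protein binds E2F transcription factors and holds back the genes that bring a cell from G1 into DNA synthesis. Cyclin-dependent kinases phosphorylate it, which releases E2F and lets those genes be transcribed. In the mouse, red cell precursors need Rb to leave the cell cycle and finish their maturation, and much of that maturation takes place beside macrophages that supply iron and engulf the expelled nuclei. Ter119 marks the red cell lineage, and CD71 is the transferrin receptor, which is highest on dividing erythroblasts.

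Few genes were distinguishable between the labels. Only H2bc4, a replication-dependent H2B histone, was called at an adjusted p under 0.05 (limma with Benjamini-Hochberg adjustment over all genes, two-sided), which is 0.0077% of the genes tested, and it was lower in the arrays labelled Rb KO. At an unadjusted p under 0.05, 597 genes (4.6%) differed, of which 133 (1.02%) were higher and 464 (3.57%) lower. The genes with the smallest p among the higher ones included E2f1 and Dtl of the G1/S list and Pole4 of the DNA replication list. Those among the lower ones included Axl, Mertk and Slc40a1 of the macrophage list. An excess of G1/S over mitotic transcripts within each array separated all 6 arrays with an Rb knockout label from the 6 without, and it is described with its values below.

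All values are log2 signals, so that a difference of 1 is a 2-fold difference, and differences are Rb KO minus WT with their standard error. The 2 labels differed by little for most genes. The median absolute difference was 0.12, the median standard error 0.18 and the median difference 0.04, with 7626 genes above 0 and 5354 below. The 95% confidence interval lay inside a 2-fold difference either way for 11977 genes (92.3%) and reached past it for the other 1003. A difference beyond 2-fold was measured for 57 genes, 9 higher and 48 lower. The number of arrays limits the precision: in data simulated for this comparison over 12980 genes, 76.1% of genes altered 2-fold were recovered, but 22.4% of those altered 1.5-fold. That simulation altered 67, 67 and 66 genes by 1.5-fold, 2-fold and 4-fold. Of the genes altered 4-fold, 95.5% were recovered. Many such calls ease the adjusted threshold for the other genes, whereas the measured arrays gave 1 call. Its noise was independent with 1 SD per gene, so it held no outlying array and no shifts shared by genes. Its shares may therefore be higher than the recovery in the measured arrays.

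Rb KO replicate 1 stood apart from the other arrays of its label by correlation. Across the genes tested, Pearson's r was 0.988 between Rb KO replicates 2 and 3, but 0.939 and 0.920 between replicate 1 and each of them, while the 3 WT pairs lay between 0.966 and 0.976. Genes are not independent replicates, and these correlations are only a description. In Rb KO replicate 1, 1026 genes lay more than 1 log2 unit below the mean of the other 2 arrays of its group. Another 326 lay more than 1 above that mean. An SD over 0.5 was seen for 2171 genes in Rb KO and for 721 in WT, although the median SD was 0.217 in Rb KO and 0.246 in WT. The median absolute difference between 2 arrays of a label was 0.169 to 0.327 in Rb KO and 0.248 to 0.365 in WT. Results that rest on this array are therefore also given without it.

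The targeted gene did not follow the labels as a marker. Rb1 signal was 13.02, 12.74 and 12.71 in WT and 12.53, 12.33 and 12.39 in the arrays labelled Rb KO. The groups did not overlap, and all 3 Rb KO arrays were lower, by a difference of -0.41 ± 0.11 (SE, n = 3 per group), which was not called (limma adjusted p = 0.394). Yet the signal was lowest where Rb was labelled intact and E2f8 deleted, at 11.74, 11.68 and 11.72, and the DKO arrays lay above these, at 12.23, 11.98 and 12.17. Neither labels nor tables say which part of Rb1 the probes read or which part was deleted, so the signal checks the label in neither direction. E2f8, which the Rb KO label leaves intact, read 12.28, 11.70 and 11.88 in WT and 12.36, 12.52 and 11.68 in Rb KO, with overlapping groups and a difference of 0.23 ± 0.19 (SE).

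**Figure D1:**
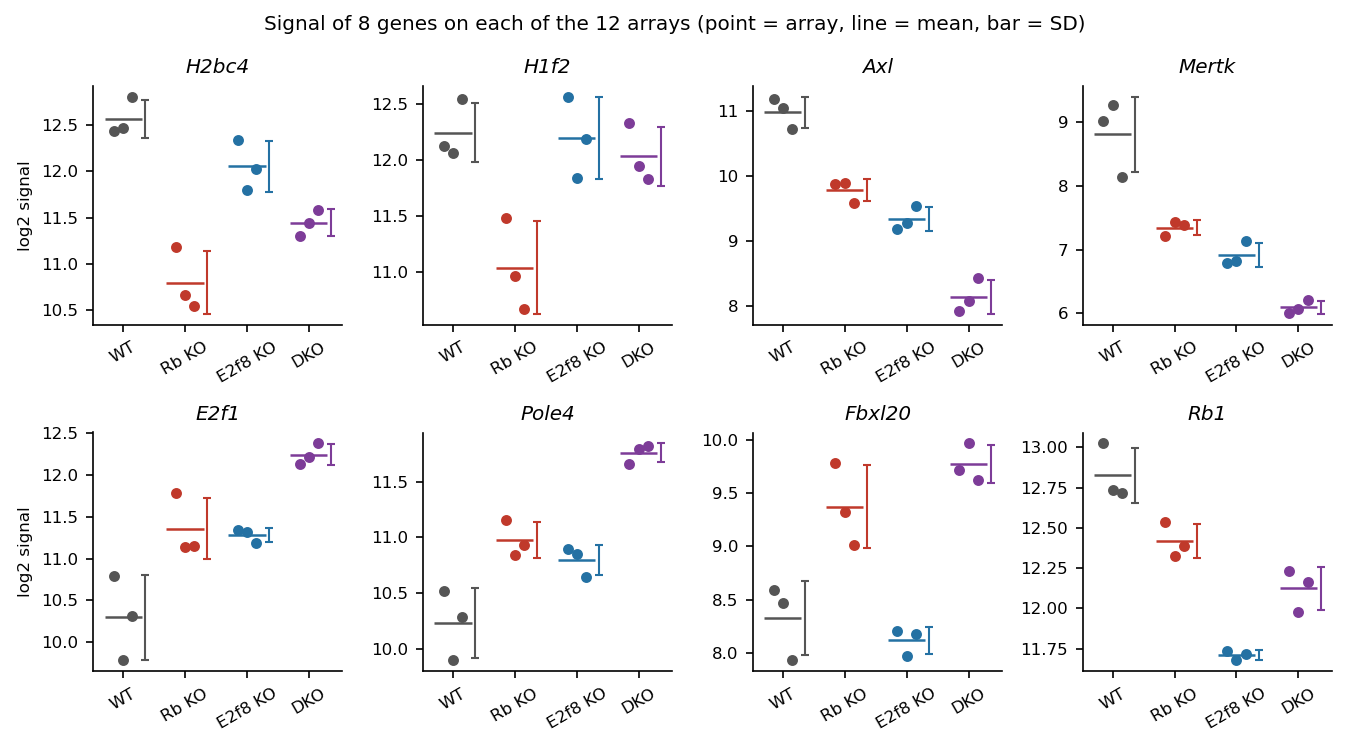
Log2 signal (vertical axes, 1 panel a gene) on each of the 12 arrays by label, with the group mean as a line and the SD (n = 3) as a bar. H2bc4 and H1f2 are lowest in the Rb KO arrays, Axl and Mertk are lower in Rb KO than in WT and lower again in E2f8 KO and DKO, Fbxl20 is higher in both groups with an Rb label than in both without, and Rb1 is lowest in the E2f8 KO arrays.

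Sorted cells were first checked against erythroid genes. Alas2, the first enzyme of heme synthesis in red cells, read 14.12, 14.29 and 14.32 in WT and 14.19, 14.08 and 14.25 in Rb KO. Tfrc, which encodes CD71, read 12.78, 12.37 and 12.50 in WT and 12.83, 12.27 and 11.73 in Rb KO. Alas2 was near the top of the signal range in every array and Tfrc lay below it, with overlapping groups for both genes. Of 12 genes listed for red cell identity, 7 were measured with a single symbol, and all 7 differences were below 0, between -0.34 for Epor, the erythropoietin receptor, and -0.06 for Klf1, a transcription factor of red cell genes. None of the 7 was called or reached an unadjusted p under 0.05, and every one had a 95% interval inside 2-fold. Without Rb KO replicate 3, Gata1, Klf1 and Rhag, a membrane protein of the Rh complex, turned above 0, which leaves 4 of 7 below, and the median difference of the list went from -0.13 to -0.00. Klf1 was also above 0 without WT replicate 1. Adult globin genes were not among the genes tested.

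Other cell types were present in the sorted RNA of both labels. The mean of 26 B cell genes was 10.75, 11.68 and 10.26 in WT and 9.66, 11.78 and 11.70 in Rb KO. The lowest value was that of Rb KO replicate 1, and the groups overlapped. One of these genes, Cd24a, is also expressed by red cell precursors, and it had the highest signal of the list. The mean of 20 T and NK cell genes was 7.49, 7.47 and 7.80 in WT and 6.93, 7.74 and 7.67 in Rb KO, again lowest in replicate 1. In bulk RNA of this kind, fewer cells of a type and less RNA per cell cannot be told apart.

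H2bc4 encodes a core histone of the H2B family and lies in the histone gene cluster of chromosome 13. Its signal was 12.43, 12.46 and 12.80 in WT and 11.19, 10.67 and 10.55 in Rb KO. All 3 Rb KO arrays were lower by more than the spread of either group. The difference was -1.77 ± 0.19 (SE, 95% interval -2.17 to -1.36, n = 3 per group, limma adjusted p = 0.00487), and it was called in each fit that left out 1 array or the 2 arrays that stand apart in Xist. With only the 6 arrays compared in the fit, it kept its size but was not called (adjusted p = 0.132). H2B genes are near-identical in sequence, so the signal of this probe set is uncertain as to which copy gave it.

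Of 25 replication-dependent and linker histone genes measured, 1 was called, 5 were lower at an unadjusted p under 0.05 and none was higher. Over all genes 0.0077% were called, and 3.57% were lower and 1.02% higher at that threshold. The median was -0.12, with 4 above and 21 below 0, against a median of 0.04 over all genes. H1f2, a linker histone of the same cluster, read 12.12, 12.07 and 12.54 in WT and 11.49, 10.97 and 10.67 in Rb KO, without overlap (difference -1.20 ± 0.23, adjusted p = 0.114). H1f3, another linker histone there, differed by -0.74 ± 0.21 (adjusted p = 0.394), H2ac8 by -0.81 ± 0.30 and H3c15 by -1.22 ± 0.40. Within the last pair the deviation came mainly from replicates 2 and 3: H3c15 read 8.90 in Rb KO replicate 1 but 7.82 and 7.49 in the others, and WT ranged from 8.81 to 9.76. Not all histone genes shared this. Other H2B genes lay close to 0, with H2bc3 at -0.07, H2bc14 at 0.08, H2bc18 at -0.07 and H2bc22 at -0.00, while H2bc8 differed by -0.47. The median of the list lay between -0.30 and -0.01 with each array left out, nearest to 0 without Rb KO replicate 3. Without Rb KO replicate 1, 5 genes of the list were called lower, where 96 of all 12980 genes (0.74%) were.

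Hfe lies in the same cluster on chromosome 13, between histone genes in the annotation, and encodes a regulator of iron uptake. It read 7.39, 7.31 and 6.85 in WT and 6.39, 6.40 and 6.48 in Rb KO. Its groups did not overlap either, with a difference of -0.76 ± 0.14 (adjusted p = 0.105).

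**Figure D2:**
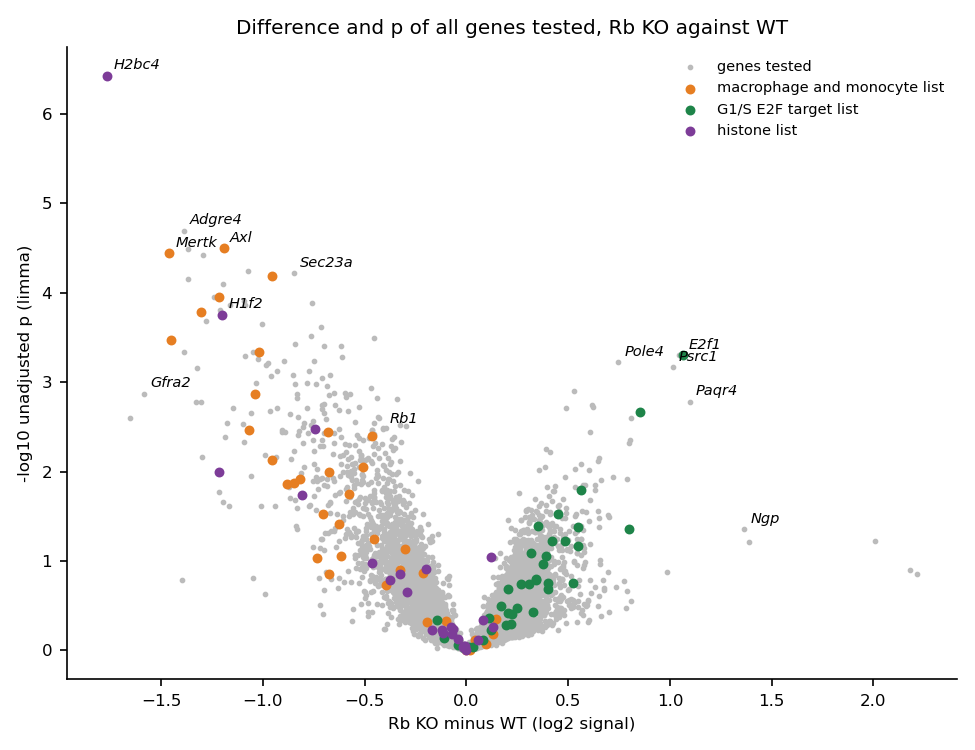
Difference (horizontal axis, Rb KO minus WT in log2 signal) against -log10 of the unadjusted limma p (vertical axis) for the 12980 genes tested, with 3 gene lists coloured. H2bc4 stands alone at the top left, macrophage genes fill the left arm, and E2f1 at 1.06 and Pole4 at 0.75 lead the right arm. The 2 rightmost grey points are Gdpd3 and Klk1b22, where WT replicate 2 alone of the 6 arrays compared read low. The 3 E2f8 KO arrays, not shown here, were low as well.

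Of the 35 gene lists described, that of macrophages lay furthest to the lower side. Of 40 genes listed for macrophages and monocytes, 36 were measured, 20 were lower at an unadjusted p under 0.05 and none was higher, against 3.57% of all genes lower at that threshold. None was called at an adjusted p under 0.05. The median difference was -0.65, against 0.04 over all genes, with 31 below 0 and 5 above. In 15 of the 36 all Rb KO arrays lay below all WT arrays. Over all genes the groups did not overlap in 6.28%, with Rb KO below in 4.03% and above in 2.25%. The list mean was 9.03, 9.23 and 8.69 in WT and 8.28, 8.52 and 8.32 in Rb KO, so that no Rb KO array reached the lowest WT array. The median was -0.54 without Rb KO replicate 1 and -0.84 without WT replicate 3, with 7 and 5 members called lower. In those fits 96 (0.74%) and 35 (0.27%) of all genes were called lower.

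Members with the smallest p included a pair of related receptors. Axl, a receptor tyrosine kinase that recognises phosphatidylserine through bridging ligands, read 11.18, 11.04 and 10.72 in WT and 9.88, 9.89 and 9.59 in Rb KO. Mertk, a kinase of the same family, read 9.02, 9.27 and 8.14 in WT and 7.22, 7.44 and 7.39 in Rb KO. All Rb KO arrays were below all WT arrays for both genes. The differences were -1.19 ± 0.19 for Axl and -1.46 ± 0.24 for Mertk (adjusted p = 0.0827 each). Mrc1, the mannose receptor, differed by -1.45 ± 0.30 (adjusted p = 0.170). Timd4, another receptor for phosphatidylserine in the list, differed by -0.30 ± 0.15, with overlapping groups. Lrp1, an endocytic receptor that is not in the list, differed by -1.07 ± 0.18 (adjusted p = 0.0903).

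Several markers and adhesion molecules of tissue macrophages had differences of a like size, while others differed by less. Adgre1, which encodes F4/80, read 9.87, 10.33 and 9.40 in WT and 8.68, 8.59 and 8.69 in Rb KO. The 3 Rb KO arrays lay close together and below every WT array, with a difference of -1.21 ± 0.22 (adjusted p = 0.105). Csf1r, the receptor for the growth factor that macrophages depend on, differed by -1.30 ± 0.25 (adjusted p = 0.112). Vcam1, an adhesion molecule by which macrophages hold erythroblasts, read 11.38, 11.96 and 11.11 in WT and 10.53, 10.49 and 10.36 in Rb KO, a difference of -1.02 ± 0.22 (adjusted p = 0.186). C1qa, a subunit of complement C1q, differed by -1.04 ± 0.25 and Adgre4, an adhesion receptor of macrophages, by -1.39 ± 0.21. Smaller differences in the list included Cd68 at -0.82 ± 0.28, C1qb of the same complex at -0.70 ± 0.29 and Siglec1 at -0.51 ± 0.16. The groups overlapped for Cd68 and C1qb.

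Of the 21 iron handling genes measured, 15 were below 0 and 6 above, with a median of -0.14 that lay between -0.27 and -0.03 with each array left out. At an unadjusted p under 0.05, where 3.57% of all genes were lower, 3 were lower, Slc40a1, Trf and Hfe, and none was called. Slc40a1, the iron exporter ferroportin, read 11.64, 11.85 and 11.62 in WT and 11.07, 10.80 and 10.38 in Rb KO. These groups did not overlap, with a difference of -0.95 ± 0.16 (adjusted p = 0.0903). Trf, the iron carrier transferrin, differed by -1.39 ± 0.30 (adjusted p = 0.186), Hmox1, which breaks down heme, by -0.95 ± 0.30 (adjusted p = 0.531) and Spic, a transcription factor of red pulp macrophages, by -0.85 ± 0.30 (adjusted p = 0.677). For Spic, Rb KO replicates 2 and 3 read 7.95 and 7.94, level with the lowest WT array at 7.94.

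Several lower genes outside the list are known from other cells as well. Sec23a, a coat protein of vesicles that leave the endoplasmic reticulum, read 10.96, 11.23 and 11.23 in WT and 10.44, 10.09 and 10.34 in Rb KO. The groups were well apart, with a difference of -0.85 ± 0.15 (adjusted p = 0.0903). Ccr3, a chemokine receptor best known from eosinophils, differed by -1.37 ± 0.22 and Abcc3, a transporter of organic anions, by -1.29 ± 0.21 (adjusted p = 0.0827 each). Adgrg1, an adhesion receptor, read 9.30, 8.25 and 6.82 in WT and 6.35, 6.46 and 6.59 in Rb KO. Its difference of -1.65 ± 0.44 (adjusted p = 0.350) came with a wide spread among the WT arrays, of which replicate 3 lay near the Rb KO level.

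Some myeloid genes lay near 0 with wide intervals. Lyz2, lysozyme, differed by 0.02 ± 0.70 (95% interval -1.51 to 1.54), Ctss, a lysosomal protease, by -0.00 ± 0.37 (-0.80 to 0.80) and Itgam, the CD11b chain, by 0.10 ± 0.54 (-1.06 to 1.25). All 3 intervals include the macrophage list's median of -0.65, but they use a spread pooled over all 12 arrays. The DKO arrays varied widely, at 8.55, 9.71 and 12.25 for Lyz2 and 5.46, 6.32 and 8.52 for Itgam. The SD of Itgam was 0.16 in WT and 0.25 in Rb KO, so its interval does not measure the spread of the 2 labels compared. Without Rb KO replicate 1, Lyz2 differed by 0.49 and Ctss by 0.44. Trem2, Cx3cr1 and Clec4f of the macrophage list also lay near 0, with intervals that leave out -0.65. They differed by 0.04 (95% interval -0.27 to 0.36), -0.10 (-0.39 to 0.19) and 0.14 (-0.25 to 0.54). Their signals were low, with WT means of 6.76, 7.16 and 5.88. Over the list, 31 of 36 genes lay below 0. The 22 granulocyte genes measured had a median difference of 0.31, and their mean was 6.17, 6.34 and 6.29 in WT against 6.66, 6.62 and 6.68 in Rb KO, without overlap. These means lie not far above the filter level of 5.838, and 4 of the 22 genes were below that level in every WT and every Rb KO array. Those 4 passed the filter only through the E2f8 KO and DKO arrays, where the list mean was 7.95 and 7.97. No member was called, and 1, Ngp, a protein of neutrophil granules, was higher at an unadjusted p under 0.05, against 1.02% of all genes. Ngp read 8.86, 8.75 and 8.77 in WT and 9.78, 10.07 and 10.62 in Rb KO. For granulocyte genes the intervals were wide, and only 5 of the 22 lay inside a 2-fold difference. These intervals also use the spread of all 12 arrays, which was widest in DKO. The SD of the list mean was 0.09 in WT, 0.03 in Rb KO, 0.21 in E2f8 KO and 1.53 in DKO. The share of each cell type in the sorted cells was not measured, and its part in these differences was not tested.

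Of the 12 higher genes with the smallest p, E2f1 and Dtl belong to the G1/S list and Pole4 to the DNA replication list, and the other 9 to neither. E2f1, an activating E2F, had 10.79, 9.78 and 10.31 in WT and 11.78, 11.14 and 11.15 in Rb KO. Every Rb KO array was above every WT array, and the difference was 1.06 ± 0.23 (SE, 95% interval 0.56 to 1.56), which was not called (adjusted p = 0.190). Pole4, a small subunit of the leading-strand DNA polymerase epsilon, had 10.51, 9.89 and 10.28 in WT and 11.15, 10.84 and 10.93 in Rb KO. Here too the groups were apart, with a difference of 0.75 ± 0.17 (adjusted p = 0.194).

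Dtl, the substrate receptor of the ligase that destroys Cdt1, differed by 0.86 ± 0.22 (adjusted p = 0.324) and Cenpm, a centromere protein, by 0.81 ± 0.22 (adjusted p = 0.350). For both genes Rb KO replicate 3 lay just below WT replicate 1, so that the groups overlapped. Psrc1, a spindle microtubule protein, had 8.19, 7.55 and 7.80 in WT and 9.26, 8.93 and 8.39 in Rb KO, a difference of 1.01 ± 0.23. Fbxl20, an F-box protein of a ubiquitin ligase, had 8.59, 8.47 and 7.93 in WT and 9.78, 9.32 and 9.01 in Rb KO, a difference of 1.04 ± 0.23. Paqr4, a membrane protein of the progestin and adipoQ receptor family, differed by 1.10 ± 0.28, Mbd4, a DNA repair glycosylase, by 0.62 ± 0.16 and Zfp688, a zinc finger protein, by 0.61 ± 0.17. None of these genes was called, with adjusted p between 0.190 for Fbxl20 and 0.394 for Zfp688.

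The promoters of several of these genes hold sequences that E2F proteins are known to bind. Windows from 250 bases before to 50 after the annotated start (RefSeq, build GRCm38.p6) were searched on both strands for TTTCCCGC, TTTGGCGC, TTTGCCGC and TTTCGCGC, a choice made after the values were seen. Of the 12 higher genes with the smallest p, 11 had a window in the table and 5 held a match, against 459 of 10317 tested genes with a window (4.45%). Among the genes at an unadjusted p under 0.05 it was 19 of 110 higher genes (17.3%) and 11 of 368 lower genes (2.99%). The windows with a match are printed below because they belong to the genes that lead the higher side, with the match in capitals. They are read along the gene's strand, which is the minus strand in each case.
Pole4 (chr6:82652825-82653124, minus strand): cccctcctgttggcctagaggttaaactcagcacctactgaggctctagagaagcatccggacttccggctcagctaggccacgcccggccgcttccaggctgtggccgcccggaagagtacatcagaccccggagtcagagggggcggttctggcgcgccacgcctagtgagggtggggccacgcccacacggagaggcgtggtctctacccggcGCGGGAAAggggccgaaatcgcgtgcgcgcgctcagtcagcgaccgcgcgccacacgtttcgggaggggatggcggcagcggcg
Paqr4 (chr17:23740281-23740580, minus strand): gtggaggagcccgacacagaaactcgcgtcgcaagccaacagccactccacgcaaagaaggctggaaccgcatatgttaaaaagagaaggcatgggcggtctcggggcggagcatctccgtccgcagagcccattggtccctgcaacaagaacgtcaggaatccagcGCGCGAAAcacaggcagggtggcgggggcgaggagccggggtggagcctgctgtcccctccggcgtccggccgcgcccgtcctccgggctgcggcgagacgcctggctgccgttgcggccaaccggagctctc
Dtl (chr1:191575495-191575794, minus strand): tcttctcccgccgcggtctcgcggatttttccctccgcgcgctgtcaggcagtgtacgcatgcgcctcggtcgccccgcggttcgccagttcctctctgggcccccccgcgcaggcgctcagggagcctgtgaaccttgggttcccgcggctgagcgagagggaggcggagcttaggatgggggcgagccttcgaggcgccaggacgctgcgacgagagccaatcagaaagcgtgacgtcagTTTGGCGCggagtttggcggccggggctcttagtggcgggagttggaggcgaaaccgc
Cenpm (chr15:82244287-82244586, minus strand): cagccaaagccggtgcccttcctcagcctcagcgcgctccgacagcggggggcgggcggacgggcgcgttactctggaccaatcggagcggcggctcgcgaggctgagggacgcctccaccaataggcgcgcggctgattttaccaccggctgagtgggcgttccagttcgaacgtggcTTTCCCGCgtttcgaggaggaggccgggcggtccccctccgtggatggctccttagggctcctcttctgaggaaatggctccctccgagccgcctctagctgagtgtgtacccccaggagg
Zfp688 (chr7:127421985-127422284, minus strand): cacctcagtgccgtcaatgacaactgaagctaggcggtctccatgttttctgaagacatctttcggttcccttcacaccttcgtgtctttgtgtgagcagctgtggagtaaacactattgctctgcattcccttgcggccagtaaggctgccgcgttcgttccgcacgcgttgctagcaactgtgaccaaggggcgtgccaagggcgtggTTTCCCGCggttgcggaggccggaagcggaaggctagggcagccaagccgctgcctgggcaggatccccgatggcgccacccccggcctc
Counted from the start, the first base of the match lay at -34 in Pole4, -83 in Paqr4, -8 in Dtl, -71 in Cenpm and -40 in Zfp688. The windows of E2f1, Fbxl20, Psrc1, Mbd4 and Tubg2 held none of these letters. Each window follows an annotated start, and sequence outside it was not searched. For E2f1 the only window may not cover the gene's main promoter, so a lack of such sites there cannot be read from it. A match is a run of letters and was not tested as a binding site here.

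As a group, 37 G1/S target genes of E2F were measured, and 7 were higher at an unadjusted p under 0.05 (against 1.02% of all genes) and none lower. The median difference was 0.32, with 33 above 0 and 4 below. Besides E2f1 and Dtl these were Cdt1, which licenses origins, at 0.56 ± 0.20, Uhrf1, which maintains DNA methylation, at 0.45 ± 0.18, the helicase subunits Mcm5 at 0.35 ± 0.16 and Cdc45 at 0.55 ± 0.24, and the checkpoint kinase Chek1 at 0.80 ± 0.36. No member was called. For the 54 DNA replication genes the median was 0.31, with 47 above 0, and 6 were higher at that threshold. Both medians rested largely on Rb KO replicate 1: without it they were 0.06 and 0.05. With each array left out they ranged from 0.06 to 0.54 and from 0.05 to 0.53, highest without Rb KO replicate 3.

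The sign of the mitotic genes' median depended on the arrays. Of 54 measured, 19 were above 0 and 35 below, and the median was -0.05. At an unadjusted p under 0.05, 2 were lower, a share near the 3.57% of all genes lower at that threshold. These were Ube2c, which drives the destruction of mitotic cyclins, at -0.30 ± 0.12 and Nusap1, a spindle protein, at -0.22 ± 0.10. Mki67, a marker of cycling cells, read 12.25, 12.68 and 12.26 in WT and 11.89, 12.57 and 11.53 in Rb KO, with overlapping groups. Without Rb KO replicate 1 the median of the list was -0.36, without Rb KO replicate 3 it was 0.26 and without WT replicate 1 it was 0.12. In that array both the G1/S and the mitotic genes were high, so that the distance between them was compared within each array.

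The mean of the 37 G1/S genes less the mean of the 54 mitotic genes was 0.35, 0.24 and 0.28 in WT and 0.54, 0.69 and 0.79 in Rb KO. Each Rb KO array lay above each WT array, although the G1/S mean itself overlapped, at 10.78, 10.08 and 10.32 in WT and 11.21, 10.69 and 10.22 in Rb KO. With E2f8 deleted, the same quantity was 0.17, 0.20 and 0.20 where Rb was labelled intact and 0.77, 0.78 and 0.90 in the DKO arrays. The 6 arrays with an Rb knockout label thus lay between 0.54 and 0.90 and the 6 without between 0.17 and 0.35. The group means were 0.29 ± 0.06 in WT and 0.67 ± 0.12 in Rb KO (SD, n = 3 arrays each), a difference of 0.38 that stayed between 0.32 and 0.44 when any 1 of the arrays was left out. This measure was formed after the values were seen and carries no test. With DNA replication genes in place of the G1/S list, WT lay between -0.59 and -0.46 and Rb KO between -0.35 and -0.07, also without overlap.

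**Figure D3:**
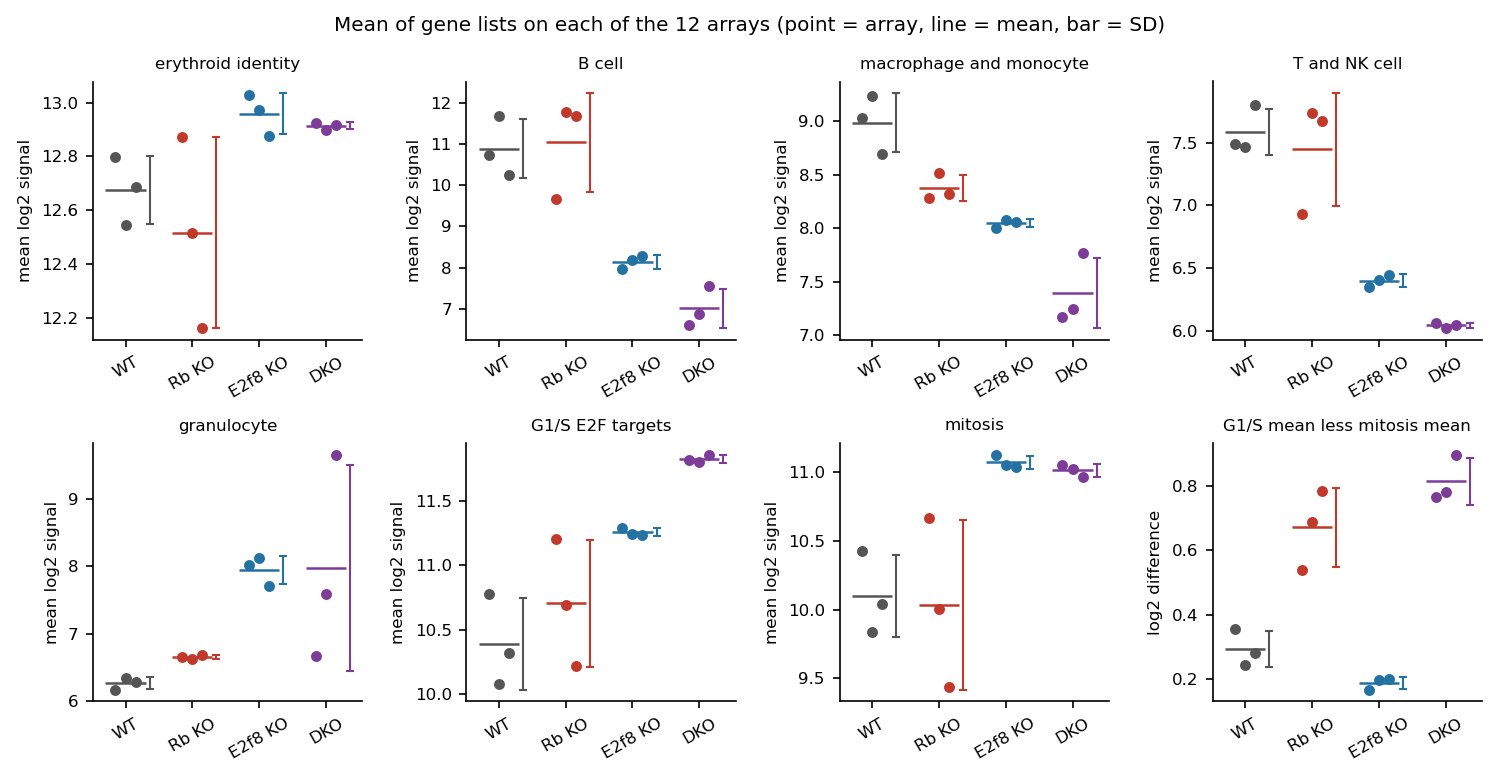
Mean log2 signal of 7 gene lists on each of the 12 arrays (vertical axes) by label, with the group mean as a line and the SD (n = 3) as a bar. The last panel gives the G1/S mean less the mitosis mean, where the Rb KO and DKO arrays lie between 0.54 and 0.90 and the WT and E2f8 KO arrays between 0.17 and 0.35. Rb KO replicate 1 (leftmost red point) is, of the 6 WT and Rb KO arrays, lowest for B, T and NK cell genes and highest for erythroid identity, G1/S and mitosis.

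Among the 13 members of the Rb and E2F family, the other genes differed by less than E2f1. E2f2, an activating E2F that is needed for terminal divisions of mouse red cell precursors, read 12.06, 12.39 and 12.43 in WT and 12.05, 11.85 and 11.74 in Rb KO. Its groups almost touched, with a difference of -0.41 ± 0.12 (adjusted p = 0.445). E2f3, the third activator, differed by 0.39 ± 0.29 and E2f7, an atypical repressor, by 0.21 ± 0.25. The Rb relatives Rbl1 and Rbl2 differed by -0.05 ± 0.22 and 0.11 ± 0.19, and the repressive E2f4 by -0.10 ± 0.15. Of the dimer partners, Tfdp1 was at 0.12 ± 0.23 and Tfdp2 at -0.22 ± 0.12. The signs of E2f5, E2f6, E2f7, Rbl1, Rbl2, Tfdp1 and E2f4 each turned when 1 array was left out.

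Genes of late red cell maturation lay slightly lower. Of 34 genes of the red cell membrane and its skeleton, 31 were below 0 with a median of -0.17, and 8 were lower at an unadjusted p under 0.05, where 3.57% of all genes were, with none higher and none called. Tmod1, which caps actin filaments, read 12.13, 12.12 and 11.94 in WT and 11.92, 11.80 and 11.08 in Rb KO. All Rb KO arrays were below the WT arrays, replicate 3 by the most, with a difference of -0.46 ± 0.18 (adjusted p = 0.835). Tpm1, a tropomyosin, differed by -0.44 ± 0.17, Epb42, which ties band 3 to the skeleton, by -0.29 ± 0.12 and Slc4a1, the anion exchanger band 3, by -0.09 ± 0.06. Without Rb KO replicate 1 the median was -0.33 and 4 members were called lower, against 0.74% of all genes, and without Rb KO replicate 3 the median was -0.05.

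The late maturation and autophagy list gave a similar picture. Of 46 measured, 39 were below 0, the median was -0.17 and 7 were lower at an unadjusted p under 0.05, where 3.57% of all genes were. With each array left out the median lay between -0.24 and -0.12. Ube2e3, a ubiquitin-conjugating enzyme, read 10.59, 10.81 and 10.90 in WT and 10.43, 9.97 and 10.16 in Rb KO, without overlap (difference -0.58 ± 0.15, adjusted p = 0.323). Sqstm1, an adaptor of selective autophagy, differed by -0.37 ± 0.11, Kdm7a, a histone demethylase, by -0.40 ± 0.12 and Fbxo9, an F-box protein, by -0.53 ± 0.15. Of the globins, Hbq1b read 11.68, 12.06 and 11.82 in WT and 10.96, 11.28 and 11.30 in Rb KO, also apart (difference -0.68 ± 0.17, adjusted p = 0.287). Hbq1b has a close copy, Hbq1a, which differed by -0.35 ± 0.28, and probes may not tell them apart. Bcl2l1, which keeps late erythroblasts alive, differed by -0.41 ± 0.13 (adjusted p = 0.572), and Slc48a1, a heme transporter, by -0.30 ± 0.08 (adjusted p = 0.384).

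Other pathways held few differences. Of 28 p53 target genes, 2 were higher and 1 lower at an unadjusted p under 0.05, against 1.02% and 3.57% of all genes. The median was 0.04. The 2 higher genes were Phlda3, an inhibitor of Akt, at 0.72 ± 0.24 and Pidd1, a death domain protein, at 0.49 ± 0.19. For Phlda3 the WT arrays read 7.57, 7.64 and 7.67 and the Rb KO arrays 8.86, 8.46 and 7.72, so that replicate 3 lay at the WT level. Ribosomal protein genes were above 0 in 39 of 41 cases, but with a median of 0.11. Of 52 oxidative phosphorylation genes none reached an unadjusted p under 0.05, against 4.6% of all genes. The median was 0.01, and all 52 had intervals inside 2-fold.

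**Figure D4:**
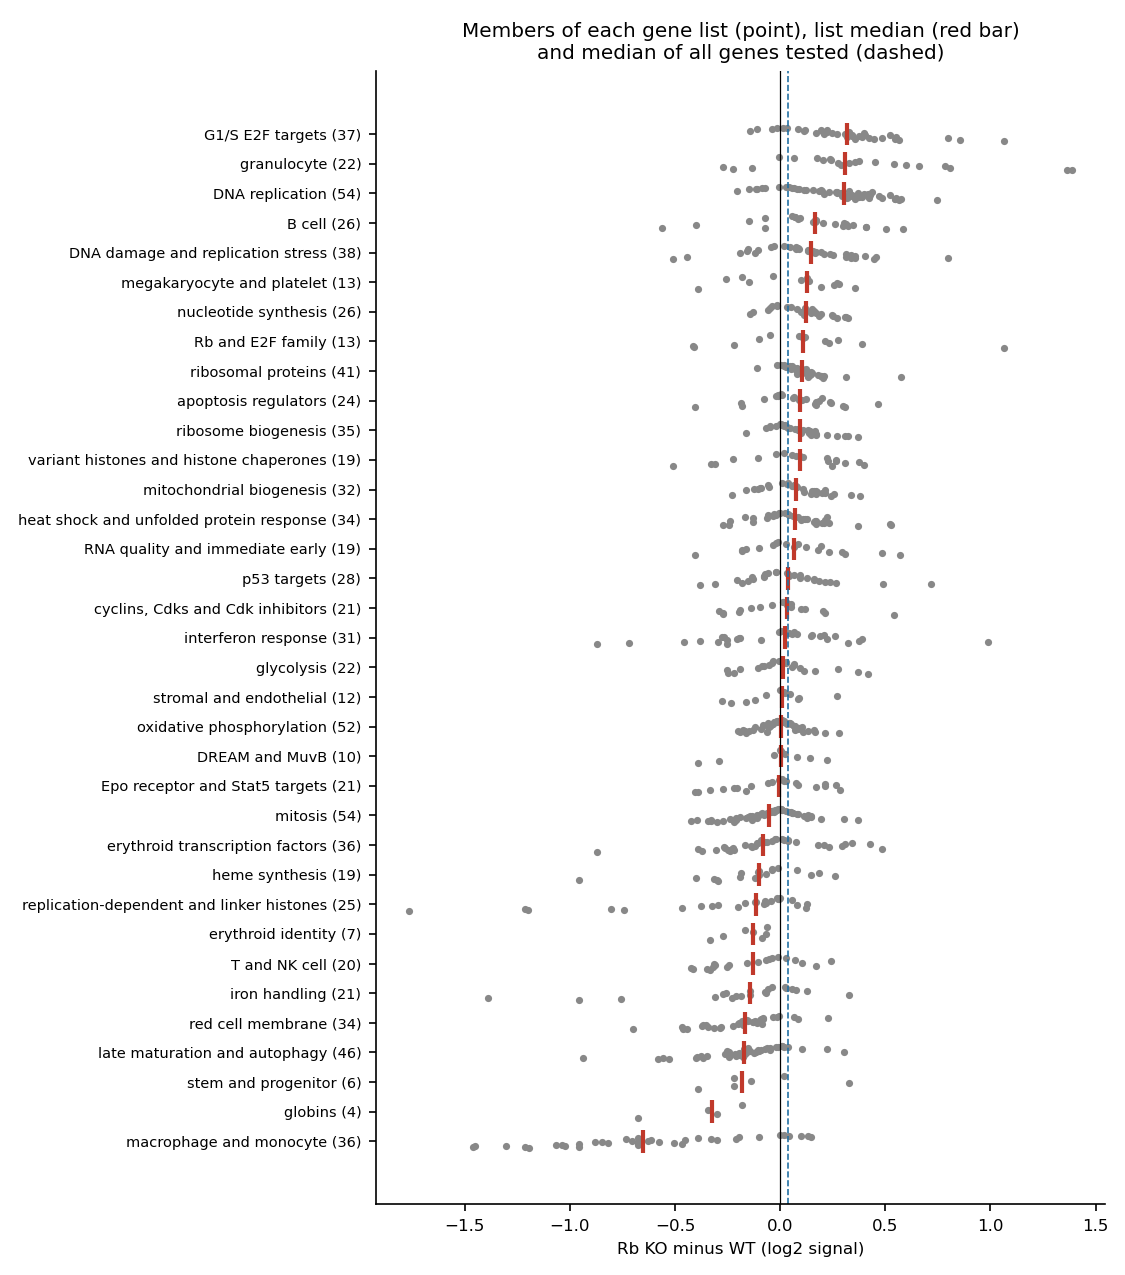
Difference (horizontal axis, Rb KO minus WT in log2 signal) of each measured member of the 35 gene lists, 1 row a list with the number measured in brackets, the list's median as a red bar and the median of all genes (0.04) as a dashed line. The macrophage and monocyte list lies lowest, with a median of -0.65, and the G1/S, granulocyte and DNA replication lists lie highest, near 0.3.

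The Rb label was also contrasted in the absence of E2f8, as DKO against E2f8 KO. That contrast shares no array with Rb KO against WT, but both take their variance from the same fit. Within it, E2f8 KO replicate 3 and DKO replicate 3 stood apart in Xist, at 5.22 and 3.99 against 11.30 to 12.18 in the other 10 arrays. The contrast called 308 genes (2.37%), 224 higher (1.73%) and 84 lower (0.647%). Of the 12 higher genes with the smallest p in Rb KO, 9 were called higher there, and of the 12 lower genes 6 were called lower. With each array left out in turn, 4 to 9 of the 12 higher genes were called, and without both arrays that stand apart in Xist it was 3. E2f1 differed by 0.96 (adjusted p = 0.0494) between 11.34, 11.32 and 11.19 in E2f8 KO and 12.13, 12.22 and 12.38 in DKO. Fbxl20 differed by 1.65 (adjusted p = 0.00239), Pole4 by 0.97 (adjusted p = 0.00964), Psrc1 by 1.43 (adjusted p = 0.00723), Paqr4 by 1.31 (adjusted p = 0.0285) and Zfp688 by 1.52 (adjusted p = 0.000568). For E2f1 all DKO arrays lay above all E2f8 KO arrays.

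On the lower side, Axl differed by -1.20 (adjusted p = 0.00723), Adgre1 by -1.75 (adjusted p = 0.00140), Csf1r by -1.62 (adjusted p = 0.00555) and Vcam1 by -1.34 (adjusted p = 0.00757) in DKO against E2f8 KO. The macrophage list had a median of -0.61 there, with 6 members called lower, close to its median of -0.65 in Rb KO against WT. A lower signal was not particular to the Rb label: the list mean was 8.99 in WT, 8.38 in Rb KO, 8.05 in E2f8 KO and 7.39 in DKO. Of the 48 genes lower beyond 2-fold in Rb KO, 36 were also called lower in E2f8 KO against WT. That contrast called 26.1% of all genes, counting both directions. The histones were less alike: H2bc4 differed by -0.61 (adjusted p = 0.111), and H1f2 by -0.16 (adjusted p = 0.730). Of the 133 genes higher at an unadjusted p under 0.05 in Rb KO, 95 (71.4%) had the same sign in DKO against E2f8 KO, against 47.3% of all genes, and 31 (23.3%) were called higher. These 31 are 13.8% of the 224 called there. Of the 464 lower genes, 422 (90.9%) had the same sign, against 52.7% of all genes, and 46 (9.91%, or 54.8% of the 84) were called lower. Without both arrays that stand apart in Xist, and with the genes chosen anew in that fit, 7 higher and 8 lower genes were called in both contrasts' direction.

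**Figure D5:**
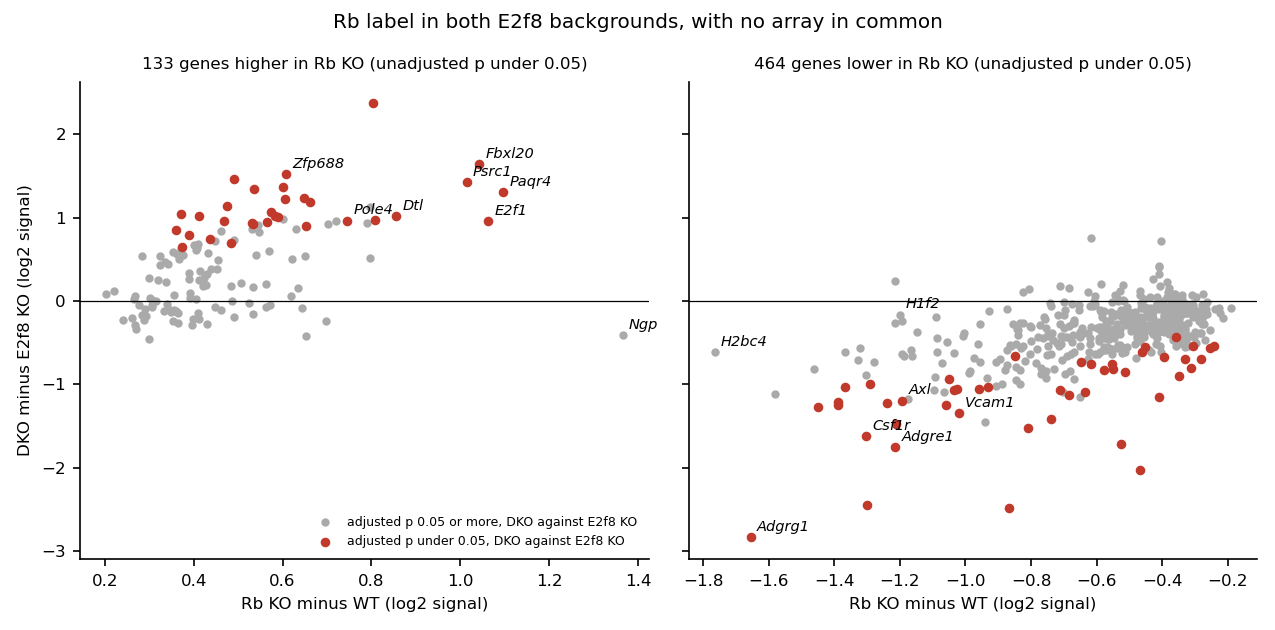
Difference in DKO against E2f8 KO (vertical axis, log2 signal) against the difference in Rb KO against WT (horizontal axis, log2 signal) for the 133 genes higher (left) and 464 genes lower (right) at an unadjusted p under 0.05, with genes called in DKO against E2f8 KO in red. Of these, 95 of 133 and 422 of 464 lie on the same side of 0 in both, while H2bc4 and H1f2 lie nearer to 0 on the vertical axis.

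The difference between the 2 backgrounds was itself tested as an interaction. It called 10 genes (0.077%), and neither H2bc4 nor any G1/S or macrophage gene named above was among them. None of the 10 was called in Rb KO against WT.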

How the data were processed

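Signals were used on the log2 scale as deposited by the authors, 1 column per array. MAS5 is named per the submitters' processing notes without a version, and the log base was inferred from the range of the values. How background was corrected and arrays were scaled is not stated, and no further normalization was applied. Of 35557 probe sets, the lowest 40% by mean over the 12 arrays (below 5.838) were removed. Probe sets with 1 gene symbol were kept, the one with the highest mean standing for a gene, which left 12980 genes. Tests used limma 3.58.1 (R 4.3.3) in 1 fit of all 12 arrays, 1 coefficient per label, with 8 residual degrees of freedom and a mean trend in the variances, and were adjusted within each comparison. The fit was tested on simulated data and made 10 false calls. The p-values, standard errors and intervals rest on the spread within labels pooled over all 12 arrays, not on that of the 6 arrays compared alone.

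The comparison, the gene lists and the rule for naming genes were chosen with earlier results of these data known, so lists are described by counts and medians without a test. The rule names the called genes, the Rb and E2F family, the 12 smallest p and 10 largest differences each way, the 4 smallest p of each of 35 lists and several erythroid genes and cell cycle markers. Not all of these appear. Csf1r, Vcam1, C1qa, C1qb, Cd68, Siglec1, Spic, H2ac8, Lyz2, Ctss, Itgam, Trem2, Cx3cr1 and Clec4f were added, chosen after their values were seen. So were the other H2B genes, Xist and the genes set by 1 array. Current symbols were assigned by gene number. Alternatives were no filter, a filter of 60%, quantile normalization, centring, other probe set rules, no variance trend, array weights, fewer arrays, a replicate block and each array left out.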

Additional observations from a re-analysis of the deposited data

Results flagged for a closer look

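Tnfrsf10b, a death receptor and p53 target, was singled out because the Rb label had a different effect in the 2 E2f8 backgrounds by a test of the difference itself. It read 6.02, 6.51 and 6.22 in WT and 5.95, 5.93 and 5.96 in Rb KO, a difference of -0.31 ± 0.16 (SE, n = 3 per group), which was not called. In DKO it read 8.36, 8.48 and 8.75, against 6.07, 6.34 and 6.51 in E2f8 KO, a difference of 2.22. The effects differed by 2.53 on the log2 scale (limma interaction, adjusted p = 0.000465, 3 arrays per group). The 3 DKO arrays alone were high.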

How the results depend on the processing

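The count of called genes depended on which arrays entered the fit. It was 1 in the main analysis, 14 after quantile normalization, 101 with array weights, 11 at an adjusted p under 0.10 and 0 by limma with only the 6 arrays compared, where 373 genes had an unadjusted p under 0.05. Leaving out each array gave 1 to 140 calls, with 140 without Rb KO replicate 1 and 35 without WT replicate 3. Genes at an unadjusted p under 0.05 numbered 913 without a filter, 1116 over all probe sets and 1219 with array weights, and 414 to 2067 with each array left out (2067 without Rb KO replicate 1). The interaction called 6 genes after removal of the lowest 60%, 59 with array weights and 2 to 49 with each array left out.

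Genes also called in DKO against E2f8 KO varied too. Of the 12 named higher genes, 4 to 9 were called with each array left out. For the genes higher at an unadjusted p under 0.05 it was 134 with array weights and 8 to 77 with each array left out, and for the lower genes 22 after centring, 74 over all probe sets, 274 with array weights and 14 to 99 with each array left out. Without the 2 arrays that stand apart in Xist, a fit chosen after the data were seen, these counts were 3, 7 and 8. The cause was not tested.

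Of 81 genes tracked, none turned sign after quantile normalization, centring or another filter. With array weights E2f5 was -0.0010 and Rbl1 was 0.066. With each array left out, E2f4 ranged from -0.19 to 0.074, E2f5 from -0.16 to 0.26, E2f6 from -0.11 to 0.70, E2f7 from -0.016 to 0.54, Rbl1 from -0.30 to 0.18, Rbl2 from -0.057 to 0.25, Tfdp1 from -0.12 to 0.38, Gata1 from -0.38 to 0.11 and Klf1 from -0.32 to 0.16. Rb1 lay between -0.47 and -0.31 over all alternatives and was never called. With the replicate number as a block, 1 gene was called and 600 had an unadjusted p under 0.05. The granulocyte median was 0.54 after removal of the lowest 60%. Deviations of same-numbered arrays correlated at 0.277, 0.57 and -0.124, and those of other pairs between -0.696 and 0.606. With 3 arrays per label, these values cannot tell whether the numbers pair the arrays.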

Other observations

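The other 9 genes called for a difference between the E2f8 backgrounds had small or uncalled differences in Rb KO against WT. Fhl1, a LIM domain protein, read 6.36, 6.41 and 6.48 in WT and 6.69, 6.54 and 6.76 in Rb KO, a difference of 0.25 ± 0.20 (SE), while DKO against E2f8 KO differed by 2.31. Klhl7, a substrate adaptor of a ubiquitin ligase, differed by -0.04 ± 0.24 in Rb KO against WT and by 3.74 in DKO against E2f8 KO. Eda2r, a receptor of the TNF family, differed by 0.03 ± 0.20 and by 2.28. Syt14 went the other way, at -0.47 ± 0.16 and -2.02. For Fhl1 all 3 Rb KO arrays lay above WT, and for Syt14 all lay below.

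Some of the largest differences came from 1 array. Gdpd3, a phosphodiesterase, read 13.15 and 13.45 in WT replicates 1 and 3 but 5.85 in replicate 2, and Klk1b22, a kallikrein, read 3.76 there. In both genes the 3 Rb KO arrays were level with the other WT arrays. BC018473 read 9.13 in WT replicate 1 and between 5.14 and 5.40 in the other 5 arrays. Xist, the RNA of the inactive X chromosome, read 5.22 in E2f8 KO replicate 3 and 3.99 in DKO replicate 3, and between 11.30 and 12.18 in the other 10 arrays, which include all 6 of Rb KO against WT.

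Igkv4-91, a light chain segment, read 7.79, 5.22 and 9.01 in WT and 7.71, 10.23 and 10.11 in Rb KO, with a difference of 2.01 ± 0.97, which was not called.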
